A study of Macaca mulatta with 6 samples.

Results

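Ensembl, the genome annotation project, gives each gene it predicts an identifier and gives a symbol only to those it can name. The features described here are the rows of the gene count table of plasma vesicles in the rhesus macaque whose identifier had no symbol. Of the 4642 features in that table, 586 had none. They were chosen by their level: 110 were kept because their counts in the 4 columns analysed came to 5 or more. The level of these 110 features is therefore a description, and it supports nothing.

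The study sequenced total RNA from blood plasma of 2 rhesus macaques, animal A and animal B. Plasma of each animal gave 3 gradient fractions, titled RNA_lipoProteins, EV and RNA_Proteins, with 1 library for each fraction and animal. EVs, extracellular vesicles, are membrane-bound particles that cells release. All samples, in every group, were treated with proteinase K, RNase and DNase, enzymes that digest protein, RNA and DNA. The series title places the work in research on early life stress, and no age, sex, strain or stress history was used here. The 4 columns were the counts of the EV library of each animal and a sum per animal that the authors had made. Which libraries went into the sums was not given, so they are the authors' values and have no SD.

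As background, a gene without a symbol is often a long non-coding RNA, a pseudogene, a member of a repeated family or a predicted protein-coding gene with no named counterpart in another species. Vesicle RNA in plasma is scarce and fragmented, and most of it is not messenger RNA. Small structural RNAs of known families, such as the RNA of the signal recognition particle and the spliceosomal U6 RNA, carry family names in the Ensembl table and so fell outside this set. Gene type was not analysed here, because the RefSeq gene table at hand carries no Ensembl identifiers to match the features by. Fewer vesicles and less RNA per vesicle cannot be told apart in these data.

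Counting depth was low. The EV library of animal A had 2615337 input reads and a total gene count of 10397, and that of animal B had 913091 and 2842. A feature with 0 counts could therefore still hold 0.0289% of the EV library of A, or 0.106% of that of B. The sums came to 62794 and 54534 counts. Intervals here are 95% Clopper-Pearson intervals or, for a ratio of shares, exact conditional binomial intervals. They cover counting error only and would be too narrow if counts include PCR copies. Markers of red cells, platelets, leukocytes and hepatocytes had 0 counts in all 4 columns, with 3 hemoglobin genes (HBA2, HBB and HBD) not matched by symbol. Of 7 vesicle markers, CD9, a tetraspanin of vesicle membranes, was the only one with EV counts, 2 in each library.

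A small number of features without a symbol made up a large part of the RNA counted. The 110 features held 5157 EV counts in animal A, or 49.6% (48.6% to 50.6%), and 1911 in animal B, or 67.2% (65.5% to 69.0%), which is 58.4% ± 12.5 (SD, n = 2). In the authors' sums they held 40.8% in A and 43.6% in B. The share was thus higher in the EV library than in the sum in both animals. The remainder is the sum less the EV count. It presumes sums that hold the EV counts as listed, which is not stated. ENSMMUG00000051300, with sums of 0, entered it as -126 in A and -101 in B. The share of the remainder was 39.0% in A and 42.3% in B. This lies 10.6 percentage points below the EV library in A and 25.0 points below it in B. Paired by animal, an exact two-sided sign-flip test gave p = 0.5 (n = 2). This is the smallest p that 2 animals allow, so the test could not have shown a difference whatever the values.

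Nearly all of these counts came from a pair of features. ENSMMUG00000054358 and ENSMMUG00000052127 together held 94.6% of the EV counts of the 110 features in A and 87.3% in B, and 88.6% and 91.9% of their summed counts. The other 108 features held 281 EV counts in A (2.70% of the library) and 242 in B (8.52%). They held 2930 summed counts in A (4.67%) and 1935 in B (3.55%). Without the leading pair in either part of the ratio, the 108 features made up 5.09% of the EV counts and 7.66% of the remainder in A, but 20.6% and 5.37% in B. The difference between EV library and remainder was then -2.57 points in A and 15.3 points in B, so the common direction of both animals rested on the leading pair. With ENSMMUG00000051300 also left out, whose EV counts exceed its sums, the difference was -5.12 points in A and 7.48 points in B.

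**Figure D1:**
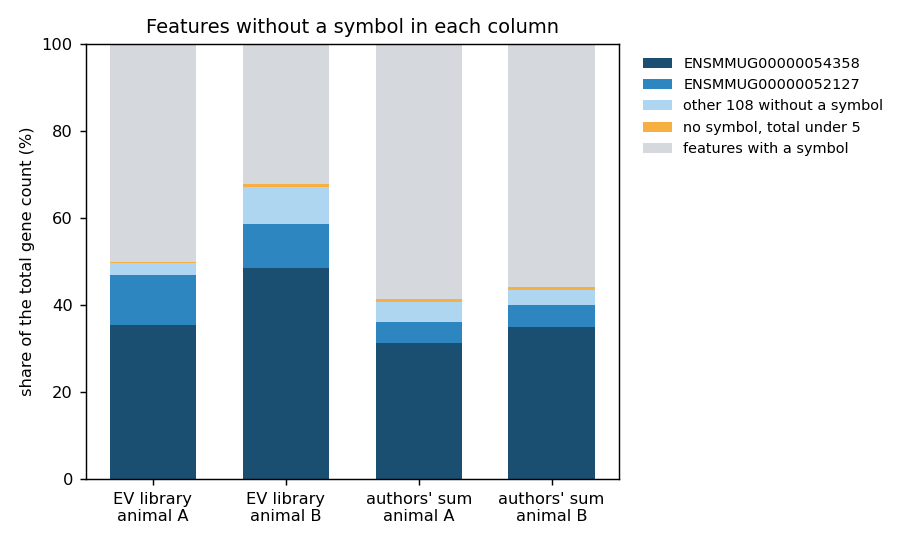
Share of the total gene count (percent, y axis) in the EV library and in the authors' sum of each animal, stacked by feature group. ENSMMUG00000054358 is the largest block without a symbol in all 4 columns, from 31.2% in the sum of A to 48.7% in the EV library of B, and the 108 lesser features hold 8.52% in the EV library of B against 2.70% in that of A.

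ENSMMUG00000054358 had 3689 counts in the EV library of A, 1383 in that of B, 19608 in the sum of A and 19111 in the sum of B. It was the highest feature of every column. Its EV share was 35.5% in A and 48.7% in B, which is 42.1% ± 9.32 (SD, n = 2), and its share of the sums was 31.2% and 35.0%. The EV share was 1.37 times as high in B as in A (1.29 to 1.46). A similar direction was seen in the sums, where the share in B was 1.12 times that in A.

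ENSMMUG00000052127 had 1187 and 286 EV counts in A and B and summed values of 3065 and 2705. Its EV share was 11.4% in A and 10.1% in B, which is 10.7% ± 0.957 (SD, n = 2). The share was 1.13 times as high in A (0.996 to 1.30). By this ratio it was the closest between the animals among the 7 features with at least 10 EV counts over both libraries. Its share of the sums was lower, 4.88% in A and 4.96% in B. This feature thus made up a larger share of the EV library than of the sum in both animals.

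ENSMMUG00000051300 was counted in the EV libraries alone. Animal A had 126 counts, a share of 1.21% (1.01% to 1.44%), and animal B had 101, a share of 3.55% (2.90% to 4.30%). The authors' sums listed 0 in both animals. A sum that held the EV counts as listed could not be 0, so the columns disagree for this feature. It was the only one of the 110 with an EV count above the sum in either animal, and 3 of 876 features with a symbol and the same minimum total had that pattern. The word sense stands in the name of the summed table but not in that of the EV counts, and the part of strand in this value was not tested.

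Of the features without a symbol, 7 had at least 10 counts over both EV libraries, and 3 of them had a share at least 2 times as high in animal B. Over all features with that many counts, 32.1% of 56 were that much higher in B and 39.3% were that much higher in A. None of the 7 was at least 2 times as high in A, where 22 of 49 features with a symbol were. The difference between both kinds of feature was not tested, and these are ratios between 2 libraries, not between kinds of animal.

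ENSMMUG00000060367 differed most between the EV libraries. It had 9 counts in A and 87 in B, with summed values of 77 and 140. Its EV share was 0.0866% in A and 3.06% in B, 35.4 times as high in B (17.8 to 79.9). Its share of the sums was 2.09 times as high in B. The remainders were closer, 68 in A and 53 in B. If the sums hold the EV counts as listed, which is not stated, the excess in B lay in the EV column.

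ENSMMUG00000018256 had 28 and 19 EV counts and summed values of 160 and 98. Its EV share was 2.48 times as high in B (1.31 to 4.61), although its count was higher in A. The sums went the other way, with a share 1.42 times as high in A. ENSMMUG00000051300, described above, was the third feature higher in B, at 2.93 times (2.23 to 3.84). ENSMMUG00000052285 had 22 and 12 EV counts and sums of 66 and 33. Its EV share lay just under the limit, at 1.995 times as high in B with an interval (0.900 to 4.21) that included 1. Its share of the sums was 1.74 times as high in A.

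ENSMMUG00000064251 was the only one of the 7 seen in 1 EV library. It had 17 counts in A and 0 in B, with sums of 26 and 9. With the 0 in B set to a floor of 3 counts, its share was 1.55 times as high in A, which did not reach the limit of 2. The exact interval of the ratio, without that floor, began at 1.13. Both remainders were 9, so the whole difference between the sums of the animals equalled the EV count of A.

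**Figure D2:**
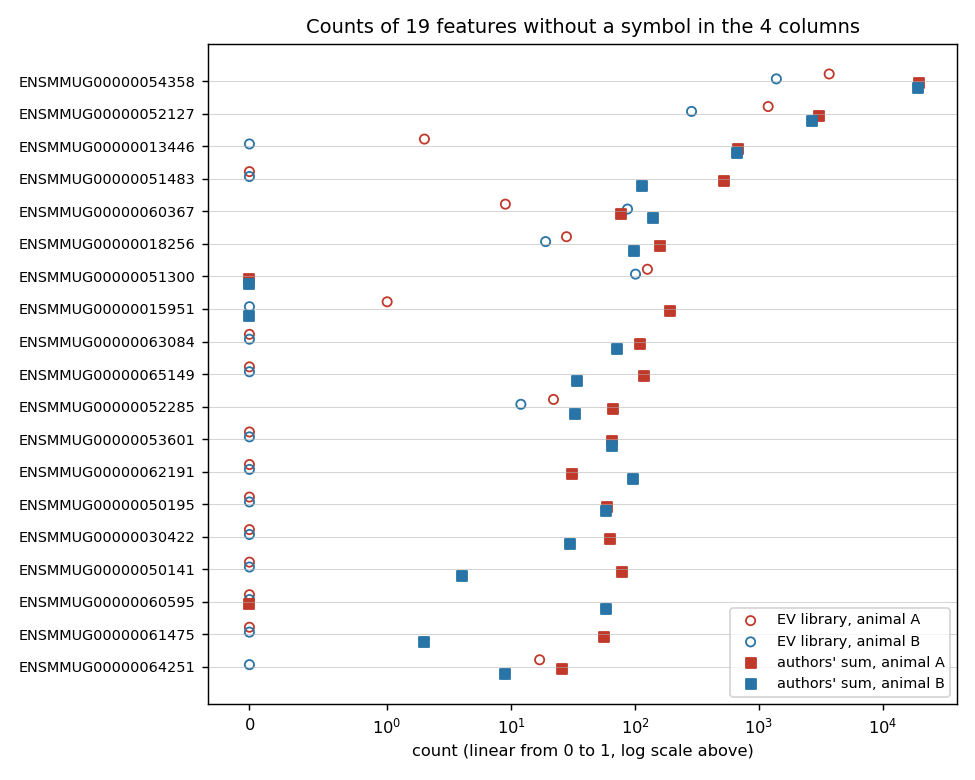
Counts (x axis, linear from 0 to 1 and logarithmic above) of 19 features without a symbol, in rows ordered by the total of the 4 columns. Open circles are the EV libraries, filled squares the authors' sums, red animal A and blue animal B; ENSMMUG00000051300 has EV counts of 126 and 101 with both sums at 0, and 10 features have both EV libraries at 0.

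Below these 7 features the EV libraries were sparse. A further 39 features had from 1 to 9 EV counts over both libraries, with no more than 7 in A and no more than 2 in B. They held 79 EV counts in A and 23 in B. The remaining 64 features (58.2%) had no EV count in either library. Of 876 features with a symbol and the same minimum total, 467 (53.3%) had no EV count. A further 360 of these (41.1%) had 1 to 9, against 35.5% of the 110 features. A count was present in the EV library of A for 41 of the 110 features (37.3%), in that of B for 21 (19.1%) and in both for 16 (14.5%). The shares were 38.7%, 18.0% and 10.05% for the 876 features with a symbol and the same minimum total, and the differences were not tested.

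The EV part of a sum, the EV count divided by the authors' sum, was 16.6% in animal A and 5.21% in animal B over the whole table. Among features with at least 10 counts in the sum, 8 of 33 without a symbol lay above that value in A and 6 of 26 in B. The share over all features was 28.1% in A and 17.3% in B. The features without a symbol stood at 24.2% and 23.1%, below that background in A and above it in B. These differences rest on few features and were not tested.

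Of the features without a symbol and with at least 10 summed counts in each animal, 4 lay above the whole table in both. The share of all features that did so in both animals was not worked out, so 4 cannot be called many or few. For ENSMMUG00000052285 the EV part was 33.3% in A (22.2% to 46.0%) and 36.4% in B (20.4% to 54.9%). For ENSMMUG00000052127 it was 38.7% (37.0% to 40.5%) and 10.6% (9.44% to 11.8%), which is 2.34 and 2.03 times the value of the whole table. These intervals lay above the whole table in both animals. ENSMMUG00000054358 was nearer to it, at 18.8% (18.3% to 19.4%) and 7.24% (6.87% to 7.61%), and it holds over 30% of both sums and so moves the value of the whole table itself. ENSMMUG00000018256 had an EV part of 17.5% in A (12.0% to 24.3%), an interval that included the whole table, and 19.4% in B (12.1% to 28.6%), above it.

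Values differed more between the animals in other features. ENSMMUG00000060367 had an EV part of 11.7% in A (5.49% to 21.0%) and 62.1% in B (53.6% to 70.2%), the highest in B. ENSMMUG00000064251 had 65.4% in A (44.3% to 82.8%) and fewer than 10 summed counts in B. At the other end, ENSMMUG00000013446 had 2 and 0 EV counts against summed values of 674 and 671, so its EV part was 0.297% in A (0.0360% to 1.07%) and 0 of 671 counts in B (up to 0.548%). This feature, the third highest of the 110 in the sums, was thus below the whole table in both animals.

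**Figure D3:**
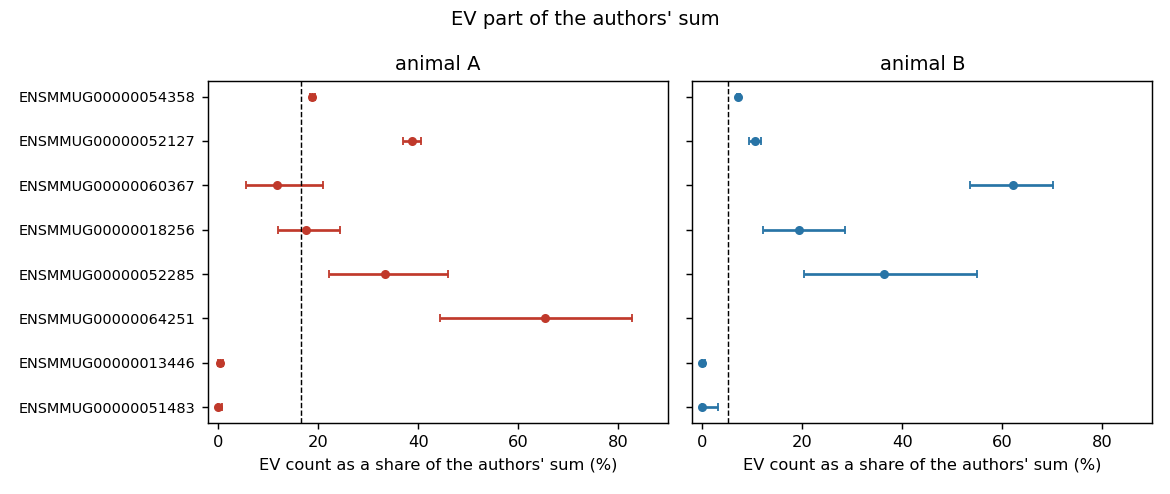
EV count as a share of the authors' sum (percent, x axis) in animal A on the left and animal B on the right, with 95% Clopper-Pearson intervals; the dashed line is the whole table, 16.6% and 5.21%. ENSMMUG00000052127 and ENSMMUG00000052285 lie to the right of the line in both animals, ENSMMUG00000013446 and ENSMMUG00000051483 near 0, and ENSMMUG00000064251 has no point in B because its sum there was under 10.

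The 64 features absent from both EV libraries held 1463 summed counts in A and 793 in B, or 2.33% and 1.45% of the sums. ENSMMUG00000051483 led them, with summed values of 525 in A and 113 in B. ENSMMUG00000063084 followed with 110 and 72, and ENSMMUG00000065149 with 118 and 34. All of these were higher in A. ENSMMUG00000053601 had 65 in both animals, ENSMMUG00000050195 had 59 and 58, and ENSMMUG00000030422 had 63 and 30. ENSMMUG00000062191 was higher in B, with 31 and 97. The median over the 64 features was 5 counts in A and 4 in B.

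Some features were high in the sum of a single animal. ENSMMUG00000015951 had 190 summed counts and 1 EV count in A, and 0 of both in B. ENSMMUG00000060595 had 0 in A and 58 in B. ENSMMUG00000061475 had 56 and 2, and ENSMMUG00000050141 had 79 and 4. With a sum of 0 set to 3 counts, the share of ENSMMUG00000015951 was 55.0 times as high in A. That of ENSMMUG00000060595 was 22.3 times as high in B. The shares of ENSMMUG00000061475 and ENSMMUG00000050141 were 24.3 and 17.2 times as high in A, each over 4 or fewer counts in B.

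Of 52 features without a symbol and with at least 10 summed counts over both animals, 14 had a share at least 2 times as high in the sum of A and 9 in that of B. Over all features with that many counts, 20.9% of 460 were that much higher in A and 12.6% in B. The features without a symbol stood at 26.9% and 17.3%, and the differences were not tested. This comparison of the sums was added after the values were seen. A summed count in animal A alone was found for 10 of the 110 features (9.09%), from 4 to 190 counts. In animal B alone it was found for 6 (5.45%), from 5 to 58 counts. Of 876 features with a symbol and the same minimum total, 80 (9.13%) had it in A alone and 30 (3.42%) in B alone. The 6 seen in the sum of B alone had no EV count in either animal, and 3 of the 10 seen in that of A alone had EV counts in A.

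Many other features had the same value in both animals once the EV count was taken off the sum. Of 48 features without a symbol and with remainders that came to at least 10 in all, 10 had equal remainders, where 22.7% of all 415 features did. Remainders within 10% of the larger were found for 13 of the 48, against 32.8% of all. The features without a symbol, at 20.8% and 27.1%, were thus not above the table as a whole in this respect. What the libraries in both sums share was not tested, so the sum of A and the sum of B cannot be taken as separate measurements.

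Equal or nearly equal remainders were seen both in features without EV counts and in some with them. ENSMMUG00000013446 had remainders of 672 and 671, and ENSMMUG00000053601 had 65 and 65. ENSMMUG00000053896 had 7 EV counts in A and 0 in B, and remainders of 40 and 41. ENSMMUG00000053389 had 6 and 0 EV counts, sums of 28 and 22, and remainders of 22 and 22. For both of these, as for ENSMMUG00000064251, taking off the EV count brought unequal sums to within 1 count. ENSMMUG00000053896 and ENSMMUG00000053389 were chosen after their values were seen. Other features remained apart, among them ENSMMUG00000054358 with 15919 and 17728, ENSMMUG00000052127 with 1878 and 2419, ENSMMUG00000018256 with 132 and 79 and ENSMMUG00000052285 with 44 and 21.

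Leaving out ENSMMUG00000051300, whose remainder is negative, 30 of 109 features had equal remainders at any level. The remainder was larger in A for 52 features and larger in B for 27. Features with a symbol had a like distribution, with 263 equal, 394 larger in A and 216 larger in B of 873.

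**Figure D4:**
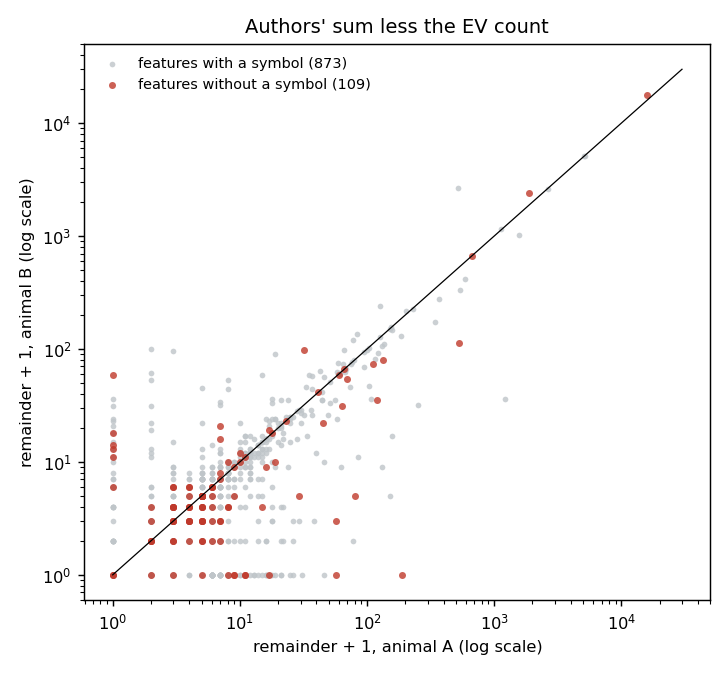
Authors' sum less the EV count, plus 1, in animal A (x axis) and animal B (y axis), both on log scales; red points are 109 features without a symbol and grey points 873 with a symbol, all with a total of at least 5 in the 4 columns. The line marks equal values, on which 30 red points lie, while features seen in a single animal lie along the axes.

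Across the 110 features, which are not replicates, Pearson's r on log2(CPM + 1) between the EV libraries was 0.57 and Spearman's rho was 0.46. Between the sums r was 0.41 and rho 0.34. Between the EV library and the sum of the same animal r was 0.33 in A and 0.31 in B, and rho was 0.21 and 0.17. An EV library and a sum share counts where the sum includes that library, and all features of a column share its depth. Over the 876 features with a symbol, r was 0.20 and rho 0.19 between the EV libraries, and 0.35 and 0.39 between the sums. Between EV library and sum they were 0.31 and 0.27 in A, and 0.24 and 0.20 in B. Features with a symbol thus had the lower rho between the EV libraries and the higher rho in the other pairs. Their r was the lower in every pair, so outside the EV libraries the direction depends on the measure. Of the 110 features, 7 had at least 10 EV counts.

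The minimum total of 5 cut through a dense range of low values. Just inside it, 13 features had a total of 5, with 0 or 1 count in each EV library and up to 4 and 5 in the sums of A and B. Just outside, 30 features had a total of 4, with up to 4 and 1 in the EV libraries of A and B and up to 3 and 2 in the sums. The median total of the 110 features was 10, with 14 features (12.7%) at 100 or more and 3 (2.73%) at 1000 or more. Features with a symbol above the same minimum also had a median of 10. Fewer of them were high, with 62 of 876 (7.08%) at 100 or more and 9 (1.03%) at 1000 or more, a difference not tested.

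Counts were also compared with the annotation as a whole. Of 11246 identifiers without a symbol in the summed table, 545 had any count in the 4 columns (4.85%), against 3861 of 24186 with one (16.0%). Of the features with any count, 20.2% without a symbol and 22.7% with one reached the minimum total. These differences were not tested. Ensembl numbers its identifiers broadly in the order in which gene models were added. Of the 110 features, 95 had a number of 49000 or higher (86.4%), against 96 of 876 with a symbol (11.0%), a limit chosen after the identifiers were seen.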

How the data were processed

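STAR was the aligner named in the submitters' processing notes. Its version, the build, the annotation and how reads were counted are not given in the sources used here. Per the labels' protocols, RNA was purified with a Norgen kit and libraries were made with the QIAseq UPXome kit. The authors deposited raw counts per gene for both EV libraries and, per gene, a sum of counts for each animal. Mapped reads were deposited as a percent of input reads and were not used in a comparison. In the EV libraries 24.26% of input reads in A and 23.38% in B mapped uniquely. A further 18.15% in A and 26.77% in B mapped to multiple places. Whether multiply mapped reads were counted is not given, and their part in the shares was not tested.

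Symbols came from a gene table that named 4056 of the 4642 identifiers. Counts were analysed in Python 3.11.15 with scipy 1.17.1, without normalization other than division by column totals. A ratio of shares was counted at 2-fold with at least 10 counts over both columns, and a 0 was set to a floor of 3 counts. Interval code was tested on simulated data. With 1 library per fraction and animal, single features were given intervals and no p-value, and the EV share less the share of the remainder was tested by an exact sign-flip test over both animals, added after the values were seen.

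The features were named if they had at least 10 counts in either EV library, were among the 10 highest sums, or among the 10 highest without EV counts, had an EV count above the sum, or had 1 of the 5 largest ratios of EV shares in a direction. Others are stated as chosen later. The members, lists and rules were chosen with earlier results of these data known. Alternatives for totals, minimums, limits, pseudocounts and single libraries were run.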

Additional observations from a re-analysis of the deposited data

How the results depend on the processing

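The mean EV share of the 110 features, 58.4%, fell to 29.0% without the highest feature of each library and to 12.9% without the leading pair, an alternative added after the data were seen; it ranged from 49.6% to 67.2% when either EV library was left out. Their share of the sums became 13.9% in A and 13.1% in B without the highest feature, 7.30% and 5.91% without the leading pair, 41.4% and 44.1% with no minimum total, and 39.0% and 42.3% with the EV count taken off. By an interval that excludes 1, the features higher in the EV library of A went from 0 to 1, which was ENSMMUG00000064251. Features with an EV part above the whole table numbered 21 in A and 10 in B at a minimum of 5 summed counts, and 5 in A by their interval. Equal remainders numbered 6 in the sums as deposited, 21 at a minimum of 5 and 4 at a minimum of 20; those within 10% numbered 24 and 7 at these minimums. Features 2-fold apart in the sums numbered 8 in A and 5 in B at a minimum of 20. For these alternative counts the share over all features was not worked out, so none of them can be called many or few. The correlation between sums rose to 0.63 with a pseudocount of 10, and those between EV library and sum to 0.43 in A and 0.41 in B. Over features with at least 10 counts, r between EV library and sum was 0.15 in A; rho was 0.79 between the EV libraries (n = 7), 0.33 between EV library and sum in B, and reversed to -0.028 in A. The minimums change how many features are counted; other causes were not tested. Apart from leaving out a library, 27 values moved, 1 reversed and 28 kept their direction within 1 SD, the counting interval, 1.5 times the count or 0.1 of a correlation. The 16 values with an EV library left out are the value of the other library, which with 2 libraries always lies within 1 SD of the mean and says nothing of stability. Fractions could not be paired because only 1 fraction had gene counts per library here. The EV library was set against the remainder of the same animal in the sign-flip test above, which 2 animals cannot make informative. Depth limits the EV values: 7 features had at least 10 EV counts.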

Other observations

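The small structural RNAs looked up here, which carry family names in the gene table, were rare in the same columns. The signal recognition particle RNA, which guides nascent secreted proteins to the endoplasmic reticulum, has 3419 identifiers named Metazoa_SRP, of which 17 were listed; these had 0 EV counts in both animals and summed values of 40 in A and 24 in B. The 5S ribosomal RNA, a component of the large ribosomal subunit, had 9 listed features of 140, with 7 and 2 EV counts and summed values of 16 and 6. U6, a spliceosomal RNA, had 1 listed feature of 1209, with 0 and 6 summed counts. Y RNA, which binds the Ro protein, had 1 of 371, with 0 and 1. Both had 0 EV counts.

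The 435 features without a symbol with totals of 1 to 4 came to 45 EV counts in A, 16 EV counts in B, 399 in the sum of A and 286 in the sum of B. They were left out of the 110 features.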
